A study of Mus musculus with 8 samples.

Results

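The 9 cytokine genes described here are Il12a, Il12b, Il23a, Il27 and Ebi3 of the IL12 family, Il10 and Il19 of the IL10 family, Il6, and Il15. They were chosen by symbol, and all 9 were found among the 36806 genes of each table. Poly(A) RNA was sequenced from bone marrow-derived macrophages of C57BL/6 mice, grown from marrow in medium conditioned by the L929 cell line and taken on day 7 of differentiation. Stimulated cultures received a single agent for 4 h. The cytokines were 100 ng/ml of interferon gamma (IFNg), 10 ng/ml each of interleukin 4 (IL4), tumour necrosis factor alpha (TNFa) and interleukin 1 beta (IL1b), and 1 ng/ml of transforming growth factor beta 1 (TGFb1). The microbial agents were MALP2, a lipopeptide of mycoplasma, at 1 ng/ml, and CpG DNA at 100 nM. Values are set against 1 culture with no treatment. Each of the 8 groups held 1 library, so no difference below has a replicate check, and neither the number of mice nor any pooling is given in the labels.

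IL-12, IL-23 and IL-27 are secreted pairs of chains. Il12b encodes p40, which pairs with the p35 chain of Il12a to form IL-12 and with the p19 chain of Il23a to form IL-23, while Ebi3 pairs with the p28 chain of Il27 to form IL-27. IL-12 and IL-27 act on T and NK cells, IL-23 on T helper 17 cells. IL-10 is a single-gene cytokine that restrains macrophage activation, IL-19 is its relative encoded nearby, IL-6 drives the acute phase response, and IL-15 maintains NK cells and memory CD8 T cells. MALP2 is sensed by TLR2 with TLR6 and CpG DNA by TLR9.

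Values are FPKM, a read density scaled to transcript length and library size, with the authors' confidence bounds within a library in parentheses. A change is log2 of (stimulated FPKM + 1) over (untreated FPKM + 1), which understates changes of genes of low FPKM. A gene is called higher or lower where it reached 1 FPKM in either library and this change was at least 1 in size. Levels compared across stimuli come from tables that the authors scaled separately and that were joined through their shared untreated values. An FPKM of 0 can be a failed estimate: the macrophage gene Lyz2 is listed at 0 in 5 of the 8 libraries, where its status is not OK. The cytokine genes had status OK in every library, and a 0 among them is given as listed. From genes with the bound widths of 1 to 3 reads, the FPKM of a single read after IFNg was 2.04 times that of the untreated library, and 1.04 to 1.44 times it for the other 6 agents, so low values after IFNg rest on fewer reads.

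For reading the responses below against sequence, the 250 bases before the transcription start are shown for the 4 genes with a RefSeq window that were higher after both TLR ligands. RefSeq windows on build GRCm38.p6 were found for 5 of the 9 genes. Capitals mark matches, on either strand, to letters used for NF-kB (GGGNNTTTC, found in 3.72% of all 32851 windows, and the shorter GGGAATTT, in 0.843%), C/EBP (TTGCNNAA, 9.56%, and its core TTGCAA, 5.34%), AP-1 (TGANTCA, 6.75%), the interferon-stimulated response element (GAAANNGAA, 7.13%) and STAT factors (TTCNNNGAA, 7.02%). The spellings can overlap one another, and the C/EBP core, AP-1 and STAT spellings read the same on both strands. The spellings were picked with these sequences in view, and a match is a description and not a binding site.
Il12b, chr11:44399813-44400062, plus strand: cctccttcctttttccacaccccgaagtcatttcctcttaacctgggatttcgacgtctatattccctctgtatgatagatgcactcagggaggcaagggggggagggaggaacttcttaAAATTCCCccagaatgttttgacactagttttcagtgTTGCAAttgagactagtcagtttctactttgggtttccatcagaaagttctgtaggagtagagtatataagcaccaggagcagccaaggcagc
Il6, chr5:30012864-30013113, plus strand: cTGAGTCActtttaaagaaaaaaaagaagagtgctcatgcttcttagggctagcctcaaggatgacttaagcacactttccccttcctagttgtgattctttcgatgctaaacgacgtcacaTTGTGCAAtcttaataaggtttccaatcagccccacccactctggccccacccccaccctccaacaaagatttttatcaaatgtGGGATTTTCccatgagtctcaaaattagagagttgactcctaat
Il19, chr1:130940116-130940365, minus strand: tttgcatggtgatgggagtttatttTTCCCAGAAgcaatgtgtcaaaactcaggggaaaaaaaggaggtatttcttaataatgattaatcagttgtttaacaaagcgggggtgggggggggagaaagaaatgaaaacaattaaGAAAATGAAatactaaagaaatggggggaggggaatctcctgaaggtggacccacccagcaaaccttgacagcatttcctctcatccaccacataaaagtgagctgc
Ebi3, chr17:55952373-55952622, plus strand: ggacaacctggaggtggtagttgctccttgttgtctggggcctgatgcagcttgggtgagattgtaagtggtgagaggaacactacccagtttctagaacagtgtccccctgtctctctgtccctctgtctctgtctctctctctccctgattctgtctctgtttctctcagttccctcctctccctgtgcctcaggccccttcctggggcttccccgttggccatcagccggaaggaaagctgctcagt
The Il12b window held the short NF-kB spelling on the opposite strand, 130 to 123 bases before the start, and the C/EBP core 93 to 88 bases before it. Il12a, which stayed under 1 FPKM in every library, also had RefSeq windows, not shown here. The same C/EBP core stood 155 to 150 bases before a start of Il12a, and its other window held no match. In Il6 the full NF-kB spelling stood 44 to 36 bases before the start, a C/EBP match 128 to 121 bases and an AP-1 match 249 to 243 bases before it. Il19 matched the interferon-stimulated response element at 107 to 99 bases and the STAT spelling at 225 to 217 bases, and Ebi3 matched none of the 7 spellings. Other spellings of these sites, NF-kB among them, were not searched. A window without a match, as Il19 for NF-kB, can therefore still hold such a site.

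By the rule above, most of these genes were higher after the TLR ligands, and few after the other agents. After CpG 6 of the 9 genes were higher and 1 was lower, where 9.43% of the 12769 genes compared were higher and 11.2% lower (20.6% in either direction). After MALP2 6 were higher and 1 lower, where 9.53% and 11.7% of 12722 genes were (21.2% in all). Il12b, Il27, Ebi3, Il10, Il19 and Il6 were the 6 higher genes after each of these agents, and Il15 was the lower one. IFNg left 3 higher and 0 lower (10.7% and 12.7% of 12813 genes, 23.4% in all), IL4 0 higher and 2 lower (9.86% and 11.9% of 12908 genes, 21.7% in all), and TGFb1 0 higher and 3 lower (7.15% and 9.15% of 12847 genes, 16.3% in all). With IL1b 0 were higher and 1 was lower (7.29% and 8.57% of 12768 genes, 15.9% in all), and with TNFa 0 were higher and 0 lower (8.92% and 10.4% of 12825 genes, 19.3% in all). In the untreated library 6 of the 9 genes were under 1 FPKM, so these could enter the count only through a high stimulated value. The shares above are over genes that reached 1 FPKM in either library. Of the 9 genes 7 did so with CpG and with MALP2, 5 with IFNg and with TNFa, 4 with IL1b, and 3 with IL4 and with TGFb1. The median gene with at least 1 FPKM in both libraries changed by -0.10 after CpG and by -0.098 to -0.071 after the other agents, and changes below are to be read relative to that shift.

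The authors' deposited tables hold their own Cuffdiff comparison of each stimulated library with the untreated one, and call a gene by a q-value of at most 0.05. They called 7 of the 9 genes after MALP2 (16.0% of 15785 genes with a test), 6 after CpG (16.6% of 15900 genes), 3 after IFNg (17.3% of 15726 genes) and 3 after IL1b (15.5% of 15815 genes). They called 2 after TNFa (16.2% of 15862 genes), 2 after TGFb1 (16.0% of 15883 genes) and 1 after IL4 (17.4% of 15919 genes). Of the genes called, those above untreated were 6 after MALP2, 6 after CpG, 3 after IFNg, 3 after IL1b, 2 after TNFa, and 0 after TGFb1 and IL4. These calls compare 2 libraries, not conditions, and after MALP2 and CpG only Il12a of the 9 genes was left untested there. More of the 9 were left untested after the other agents: 3 each after IFNg and IL1b, 4 after TNFa, and 5 each after IL4 and TGFb1.

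**Figure D1:**
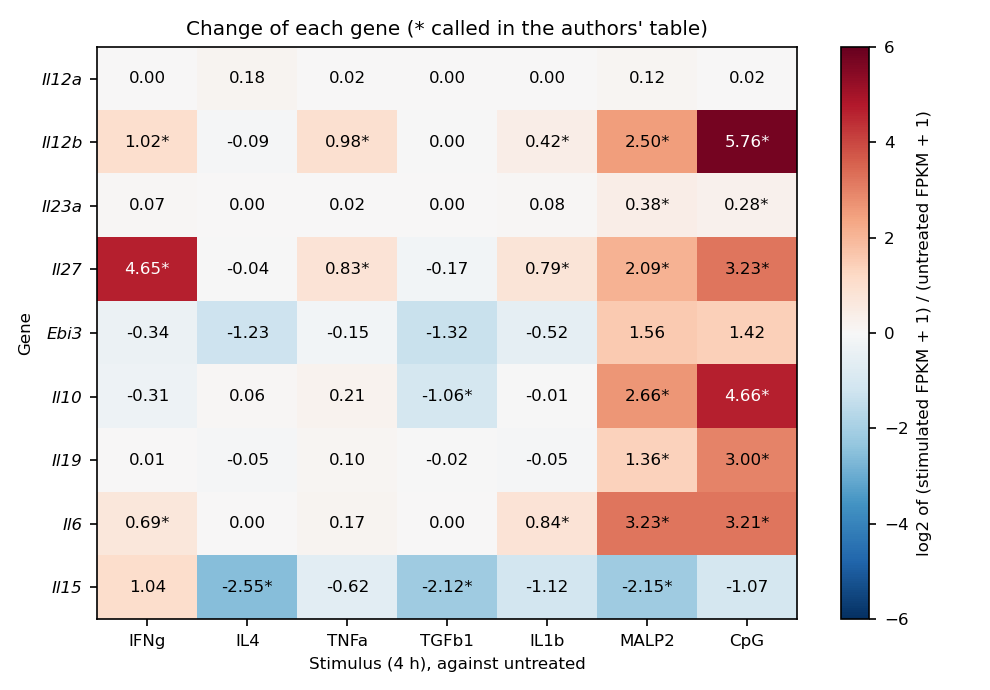
Change of each cytokine gene (rows) after each stimulus (columns) as log2 of (stimulated FPKM + 1) over (untreated FPKM + 1), red for higher and blue for lower, with an asterisk where the authors' table calls the gene. The MALP2 and CpG columns hold 6 changes above 1 each, up to 5.76 for Il12b after CpG, and the Il15 row is below 0 except after IFNg.

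Il12b, the p40 chain shared by IL-12 and IL-23 (ENSMUSG00000004296, mm9 chromosome 11, 44213565 to 44227535), had the highest change of the 9 genes. Its level was 59.9 FPKM after CpG, 5.35 FPKM after MALP2, 1.3 FPKM after IFNg, 1.18 FPKM after TNFa, 0.471 FPKM after IL1b, 0.105 FPKM after TGFb1 and 0.0409 FPKM after IL4, against 0.106 FPKM untreated. CpG stood alone at the top, with bounds of 23.9 to 95.9 FPKM that did not reach those of MALP2 (1.85 to 8.86 FPKM), while all other neighbours in the order overlapped. In its own table Il12b was 58.7 FPKM after CpG against 0.104 FPKM untreated, a change of 5.76, and the q-value in the authors' deposited table is listed as 0. MALP2 gave 5.26 against 0.104 FPKM (2.50), with q = 2.60e-11 in the authors' deposited table. IFNg gave 1.23 against 0.0998 FPKM (1.02), just past the size asked for here, and TNFa 1.18 against 0.106 FPKM (0.98), just short of it. With the median gene set to no change the TNFa value passed as well (1.06), and with a minimum of 5 FPKM neither counted. Both of those, and the smaller change after IL1b (0.42), were also called in the authors' deposited tables, with q = 0.000256, 9.35e-05 and 0.0241. After IL4 the change was -0.09 and after TGFb1 -0.00066, and neither was tested there.

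Il12a, the p35 chain that only IL-12 has among IL-12 and IL-23 (ENSMUSG00000027776, mm9 chromosome 3, 68494566 to 68502469), stayed under 1 FPKM in every library. It was 0.129 FPKM (0.0164 to 0.242) after IL4, 0.0883 FPKM after MALP2, 0.0169 FPKM after TNFa and 0.0148 FPKM after CpG, and is listed at 0 after IFNg, TGFb1 and IL1b and in the untreated library. Only the IL4 value has a lower bound above 0. No fold is given for Il12a, because the untreated library lists it at 0, and its changes on the log2 scale were 0.18 at most. In the CpG library Il12b stood 4042 times above Il12a in FPKM, and in the MALP2 library 60.6 times above it, but the Il12a values in these ratios rest on bounds that start at 0.

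Il23a, the p19 chain of IL-23 (ENSMUSG00000025383, mm9 chromosome 10, 127733196 to 127735140), was likewise under 1 FPKM throughout. Its level was 0.308 FPKM (0.0596 to 0.557) after MALP2, 0.219 FPKM (0.0416 to 0.397) after CpG, 0.0565 FPKM after IL1b, 0.0513 FPKM after IFNg and 0.0156 FPKM after TNFa, and it is listed at 0 after IL4, after TGFb1 and in the untreated library. The value after TNFa has the bound width of 1 read, that after IFNg of 2 reads and that after IL1b of 4 reads. The TLR ligands gave the highest values, and their bounds overlap with each other and with those of IL1b. Both were called in the authors' deposited tables, MALP2 with q = 0.0431 and CpG with q = 0.0431, beside an untreated value listed at 0. Il12b exceeded Il23a by 17.4 times in FPKM after MALP2 and by 273 times after CpG.

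**Figure D2:**
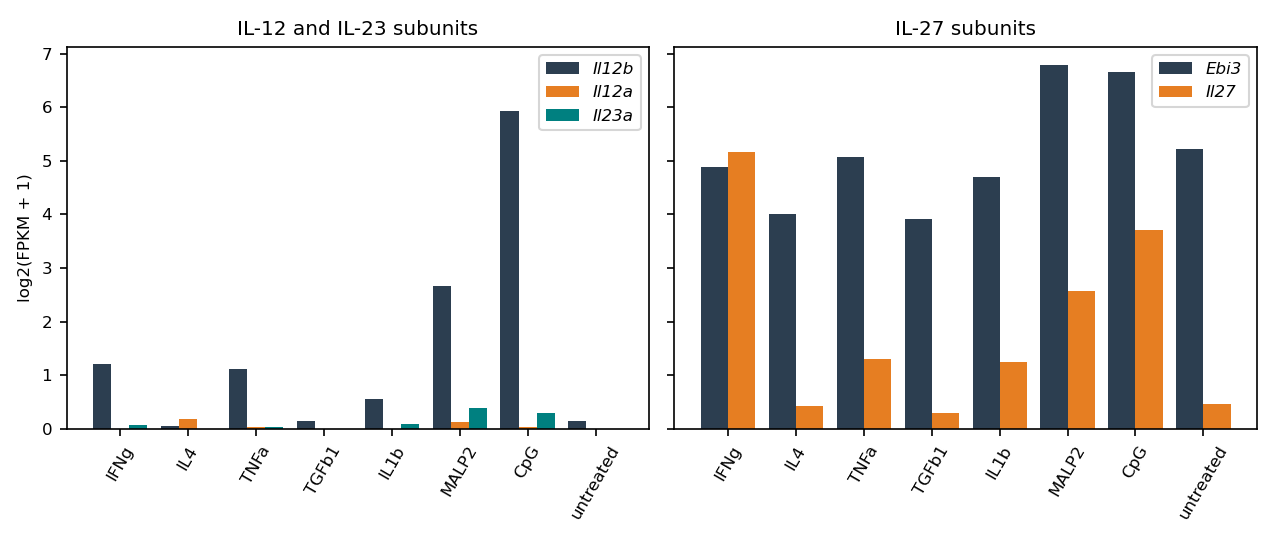
Bars give log2(FPKM + 1) of Il12b, Il12a and Il23a (left) and of Ebi3 and Il27 (right) in the 7 stimulated libraries and the untreated library, from joined tables. Il12b after CpG (59.9 FPKM) stands beside Il12a at 0.0148 FPKM and Il23a at 0.219 FPKM, and Il27 is above Ebi3 only after IFNg.

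Il27, the p28 chain of IL-27 (ENSMUSG00000044701, mm9 chromosome 7), was highest after IFNg and next after the TLR ligands. Its level was 35.1 FPKM after IFNg, 12.1 FPKM after CpG, 4.93 FPKM after MALP2, 1.45 FPKM after TNFa, 1.37 FPKM after IL1b, 0.342 FPKM after IL4 and 0.231 FPKM after TGFb1, against 0.378 FPKM untreated. Neighbours in that order have overlapping bounds, although IFNg (12.7 to 57.6 FPKM) does not overlap MALP2 (1.49 to 8.36 FPKM). In the authors' tables Il27 was 33.2 FPKM after IFNg against 0.357 FPKM untreated, a change of 4.65, with a q-value listed as 0 in the authors' deposited table. CpG gave 11.9 against 0.371 FPKM (3.23) and MALP2 4.84 against 0.371 FPKM (2.09), with q = 3.51e-10 and 2.36e-05 in the authors' deposited tables. TNFa (0.83) and IL1b (0.79) fell short of 2-fold on this scale and were called in the authors' deposited tables with q = 0.0432 and 0.0412. The locus that the tables list for Il27, 133714721 to 133738455, also holds Apobr and Cln3, whose changes after IFNg were 0.43 and 0.13, and reads where genes overlap cannot be told apart. The IFNg library also had the highest summed neutrophil markers (416 against 264 FPKM) and stromal markers (147 against 69.2 FPKM), and the part of such cells in Il27 and Il15 was not tested.

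Ebi3, the partner of p28 in IL-27 (ENSMUSG00000003206, mm9 chromosome 17), was expressed in untreated macrophages and varied less. It stood at 109.5 FPKM after MALP2, 99.6 FPKM after CpG, 32.8 FPKM after TNFa, 28.6 FPKM after IFNg, 25.1 FPKM after IL1b, 15.0 FPKM after IL4 and 14.0 FPKM after TGFb1, against 36.5 FPKM untreated. MALP2 (1.56) and CpG (1.42) were above untreated by the size asked for, and IL4 (-1.23) and TGFb1 (-1.32) below it. None of the 4 was called in the authors' deposited tables (q = 0.0719, 0.106, 0.151 and 0.0667), and each pair of neighbours in the order has overlapping bounds. The widest gap, MALP2 (41.0 to 178 FPKM) over TGFb1 (6.45 to 21.6 FPKM), has bounds that do not overlap. Its listed locus, 56092046 to 56107372, also holds Yju2 and ENSMUSG00000084841. Their changes were 0.66 and 0.76 after MALP2, and 0.95 and 0.97 after CpG. In the ratio of the IL-27 chains, Ebi3 was 0.812 times Il27 after IFNg, 8.23 times after CpG and 22.2 times after MALP2, against 96.7 times in the untreated library, all in FPKM.

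Il10, whose product restrains macrophage activation (ENSMUSG00000016529, mm9 chromosome 1, 132916422 to 132921551), was higher after CpG and MALP2 and lower after TGFb1. Its level was 76.8 FPKM after CpG, 18.5 FPKM after MALP2, 2.53 FPKM after TNFa, 2.18 FPKM after IL4, 2.04 FPKM after IL1b, 1.45 FPKM after IFNg and 0.483 FPKM after TGFb1, against 2.06 FPKM untreated. CpG (30.7 to 123 FPKM) and MALP2 (7.05 to 29.9 FPKM) have bounds apart from each other and from all others, and neighbours among the remaining 6 libraries overlap. CpG gave 75.3 against 2.02 FPKM (4.66) and MALP2 18.1 against 2.02 FPKM (2.66), with q = 6.93e-13 and 6.23e-05 in the authors' deposited tables. TGFb1 gave 0.497 (0.168 to 0.827) against 2.12 (0.819 to 3.41) FPKM, a change of -1.06, with q = 0.0125 in the authors' deposited table, although the bounds overlap narrowly. This call did not hold with the median gene set to no change (-0.99), nor with a minimum of 5 FPKM, which neither value reached. IFNg, IL4, TNFa and IL1b left changes of -0.31, 0.06, 0.21 and -0.01.

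Il19, an IL10 relative encoded beside it (ENSMUSG00000016524, mm9 chromosome 1, 132829235 to 132836650), reached 1 FPKM after the TLR ligands only. It was 7.40 FPKM (4.28 to 10.5) after CpG and 1.69 FPKM (0.876 to 2.51) after MALP2, then 0.107 FPKM after TNFa, 0.0442 FPKM after IFNg and 0.0233 FPKM after TGFb1, against 0.0360 FPKM untreated, and is listed at 0 after IL4 and IL1b. The bounds of CpG and MALP2 stand apart from each other and above the rest, and the untreated value has the bound width of 2 reads. Its changes were 3.0 after CpG and 1.36 after MALP2, with q = 3.86e-11 and 6.85e-06 in the authors' deposited tables. In FPKM Il10 was 10.4 times Il19 after CpG and 10.9 times after MALP2. Il20 and Il24, the other IL10 relatives of this gene cluster, are listed at 0 in every library. The status of these estimates is not given here, so the zeros are as listed only.

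Il6, the acute phase cytokine (ENSMUSG00000025746, mm9 chromosome 5, 30339701 to 30346508), was similar after both TLR ligands and near 0 untreated. Its level was 8.82 FPKM (2.98 to 14.7) after MALP2, 8.72 FPKM (3.05 to 14.4) after CpG, 0.834 FPKM after IL1b, 0.707 FPKM after IFNg, 0.164 FPKM after TNFa, 0.0356 FPKM after TGFb1 and 0.0343 FPKM after IL4, against 0.0332 FPKM untreated. The step below CpG, to IL1b (0.293 to 1.37 FPKM), is the only one between neighbours without overlap. The untreated value and those after IL4 and TGFb1 have the bound width of 2 reads each. Changes of 3.23 after MALP2 and 3.21 after CpG came with q = 6.12e-11 and 5.87e-11 in the authors' deposited tables. IL1b (0.844 against 0.0336 FPKM) and IFNg (0.667 against 0.0313 FPKM) stayed under 1 FPKM and so were not counted here, but were called in the authors' deposited tables with q = 0.000580 and 0.00207. TNFa gave 0.164 (0.0220 to 0.306) against 0.0332 FPKM and was not tested there.

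Il15, the NK and memory T cell cytokine (ENSMUSG00000031712, mm9 chromosome 8, 84855536 to 84927121), ran the other way, with most stimulated libraries below the untreated one. Its level was 22.3 FPKM after IFNg, 6.37 FPKM after TNFa, 4.37 FPKM after CpG, 4.22 FPKM after IL1b, 1.63 FPKM after TGFb1, 1.54 FPKM after MALP2 and 0.963 FPKM after IL4, against 10.3 FPKM untreated. It was lower after 5 agents: by -2.55 after IL4 (1.00 against 10.7 FPKM), -2.15 after MALP2 (1.51 against 10.1 FPKM), -2.12 after TGFb1 (1.68 against 10.6 FPKM), -1.12 after IL1b and -1.07 after CpG. The authors' deposited tables called the first 3 of these, with q = 3.48e-06, 4.20e-05 and 2.64e-05, and not IL1b (q = 0.0918) or CpG (q = 0.179). With the median gene set to no change the CpG value fell short of the size (-0.97), and against the other 6 stimulated libraries Il15 turned to 0.38 after IL1b and 0.45 after CpG. After IFNg Il15 was 21.1 (8.26 to 33.9) against 9.74 (3.84 to 15.6) FPKM, a change of 1.04, with q = 0.237 in the authors' deposited table and overlapping bounds. Neighbours in the order of levels overlap, while IFNg (8.75 to 35.9 FPKM) lies above the bounds of CpG, IL1b, TGFb1, MALP2 and IL4.

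**Figure D3:**
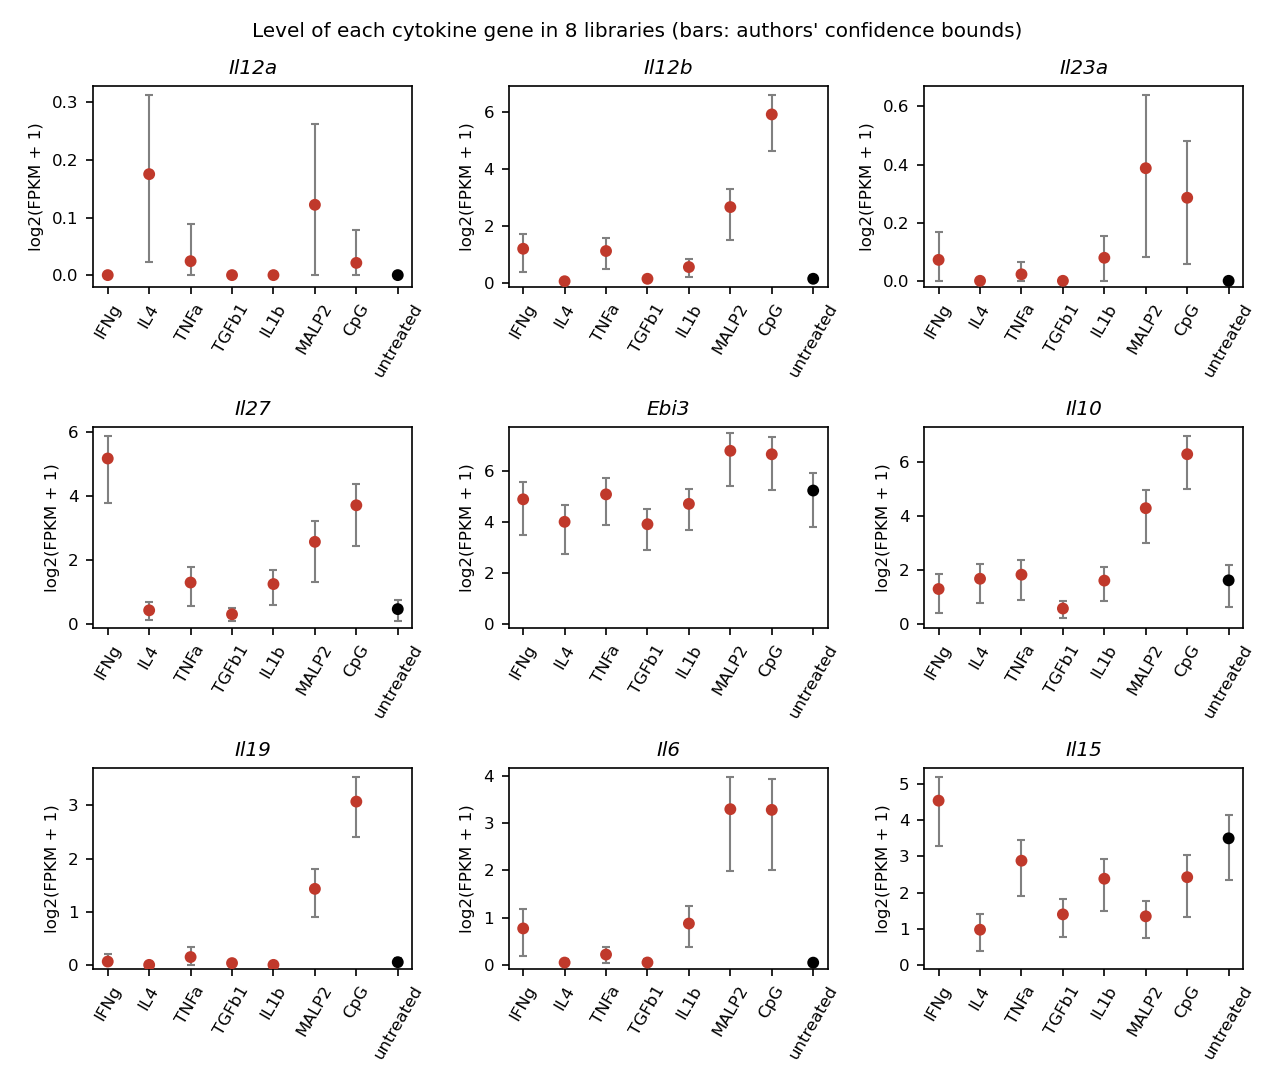
Level of each cytokine gene as log2(FPKM + 1) in the 7 stimulated libraries (red) and the untreated library (black) from joined tables, 1 library per point, with the authors' confidence bounds as bars and a separate vertical scale per gene. Il12b, Il10 and Il19 peak after CpG, Il6 is level between MALP2 and CpG, and Il27 and Il15 peak after IFNg.

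CpG was then set against MALP2, both TLR ligands at a single dose (100 nM and 1 ng/ml), so agent and dose cannot be told apart. Of the 9 genes 7 reached 1 FPKM in either library, and 5 were at least 2-fold higher after CpG and 0 lower. Over all 12168 genes compared, 1.18% were higher and 0.723% lower (1.90% in all). Il12b was 59.9 after CpG against 5.35 FPKM after MALP2 (log2 3.26), Il10 76.8 against 18.5 FPKM (2.0), and Il19 7.40 against 1.69 FPKM (1.64), each with bounds apart. Il27 (12.1 against 4.93 FPKM, 1.14) and Il15 (4.37 against 1.54 FPKM, 1.08) also passed the size, with bounds that overlap. Il6 (8.72 against 8.82 FPKM, -0.01), Ebi3 (99.6 against 109.5 FPKM, -0.14) and Il23a (0.219 against 0.308 FPKM, -0.10) had overlapping bounds. Those bounds are wide: for Il6 they ran from 3.05 to 14.4 FPKM after CpG and from 2.98 to 14.7 FPKM after MALP2. TNFa was set against IL1b in the same way. Of the 9 genes 5 reached 1 FPKM in either library, and 0 passed in either direction. Over all 12355 genes compared, 1.69% were higher after TNFa and 1.25% lower (2.94% in all). Among genes above 0 in both libraries the largest ratio was that of Il6, at 0.164 FPKM after TNFa against 0.834 FPKM after IL1b, with bounds of 0.0220 to 0.306 and 0.293 to 1.37 FPKM that overlap.

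**Figure D4:**
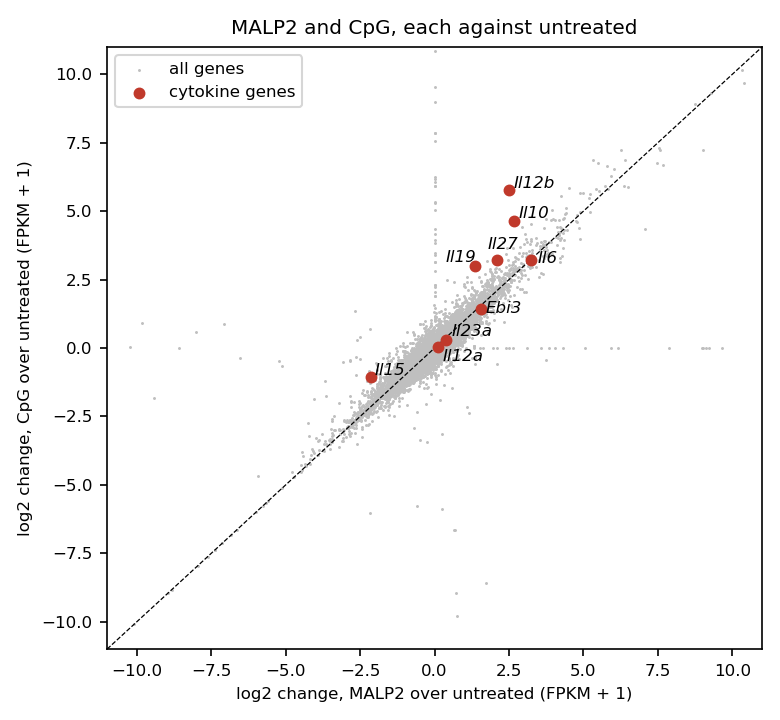
Each grey point is a gene with at least 1 FPKM in the CpG, MALP2 or untreated library, placed by its log2 change after MALP2 (horizontal) and after CpG (vertical), both over untreated, and red points are the 9 cytokine genes. Il12b, Il10 and Il19 lie above the dashed line of equal change (log2 3.26, 2.0 and 1.64 for CpG over MALP2) and Il6 lies on it. Grey points at 0 on an axis are genes whose value after that agent equalled the untreated one, as where both are listed at 0.

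Among 15 other cytokines of the IL6, IL10 and common gamma chain families, at most 3 reached 1 FPKM in any comparison. Lif, the leukaemia inhibitory factor, was higher after IFNg (3.62 against 0.309 FPKM, 1.82, q = 1.44e-07 in the authors' deposited table) and after IL1b (1.71 against 0.332 FPKM, 1.03, q = 0.000264 there). IFNg had 2 higher and 0 lower on this list, IL1b 1 and 0, and the other 5 agents 0 and 0. By agent, 7.15% to 10.7% of all genes compared were higher and 8.57% to 12.7% lower.

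Of 17 receptor chains 9 or 10 reached 1 FPKM, and 5 were higher and 2 lower after IFNg. The remaining agents had 0 to 2 higher and 2 or 3 lower. Across the agents 7.15% to 10.7% of all genes compared were higher and 8.57% to 12.7% lower. The median change of those measured was 1.37 after IFNg and -0.69 to -0.35 after the others, where the median over all genes compared lay between -0.12 and -0.077. Il15ra, which presents IL-15 to neighbouring cells, was 39.0 against 3.71 FPKM after IFNg (3.09), and 10.2 against 3.93 FPKM after TNFa (1.18), with changes of -0.69 to 0.14 after the other 5 agents. The IL-12 receptor chain Il12rb1 was 8.62 against 0.405 FPKM after IFNg (2.78, q = 4.63e-11 in the authors' deposited table). Il10ra, the ligand-binding chain for IL-10, was lower after IL4 (25.3 against 91.4 FPKM, -1.81) and higher after IFNg (229 against 87.9 FPKM, 1.37). Il6ra was lower after TNFa (17.0 against 60.1 FPKM, -1.76) and IL1b (18.3 against 60.8 FPKM, -1.68), and also after MALP2 (-1.55), IFNg (-1.48), TGFb1 (-1.37) and CpG (-1.26), with -0.85 after IL4. These 6 lower values share the single untreated library, and those after MALP2 and CpG were not called in the authors' deposited tables. Il6st, the gp130 chain through which IL-6 signals, was lower after MALP2 (13.1 against 49.5 FPKM, -1.84) and TGFb1 (18.5 against 51.9 FPKM, -1.44), and also after TNFa (-1.33) and IL1b (-1.16). After IL4 Il6st was higher (146 against 50.4 FPKM, 1.51). Neither the IL4 nor the IL1b change of Il6st was called in the authors' deposited tables. Lifr, the receptor of leukaemia inhibitory factor, was among the chains with the largest called changes for IL4, TNFa, TGFb1, IL1b, MALP2 and CpG, with changes of -1.96 to -1.45, and it stood at -1.30 after IFNg. All of these Lifr values are set against the same untreated library.

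Of 14 JAK, STAT and SOCS genes, which carry and limit these cytokines' signals, 6 were higher and 0 lower after IFNg, 5 and 0 after CpG, 4 and 0 after MALP2, and 3 and 4 after IL4. TNFa had 3 higher and 1 lower, IL1b 2 and 1, and TGFb1 1 and 2. The median change of those measured ran from -0.88 after IL4 to 0.75 after IFNg. Over all genes compared the median lay between -0.12 and -0.077, and 7.15% to 10.7% were higher and 8.57% to 12.7% lower. Socs3, the feedback inhibitor of gp130 signalling, was 768 against 8.76 FPKM after CpG (6.30), 592 against 8.76 FPKM after MALP2 (5.92) and 287 against 8.43 FPKM after IFNg (4.93). Smaller changes of Socs3 followed TNFa (99.4 against 8.93 FPKM, 3.34) and IL1b (75.2 against 9.04 FPKM, 2.92). Socs1, which limits interferon signalling, was 259.6 against 0.814 FPKM after IFNg (7.17) and 94.1 against 0.897 FPKM after IL4 (5.65), and was higher after CpG (3.64), MALP2 (2.65) and TNFa (1.15). Cish was 75.8 against 1.02 FPKM after IL4 (5.25) and was higher after IFNg (3.93), CpG (1.65) and MALP2 (1.14). Jak2 stood above untreated after all 7 agents, by 3.36 after IL4, 3.13 after CpG, 2.53 after IFNg, 2.15 after TNFa, 2.02 after MALP2, 2.01 after TGFb1 and 1.09 after IL1b. These 7 changes share the single untreated library. That after IL1b was not called in the authors' deposited table. The Jak2 change after IL4 may not be among the 3 counted as higher there. Stat5b was lower after IL1b (-1.24), TNFa (-1.22), IL4 (-1.19) and TGFb1 (-1.13).

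Of 24 transcription regulators known from cytokine promoters, 14 were higher and 0 lower after IFNg, 13 and 1 after CpG, 11 and 1 after MALP2, 9 and 4 after IL1b, 7 and 2 after TNFa, 4 and 5 after IL4, and 3 and 7 after TGFb1. Their median change was 1.54 after IFNg, 1.22 after CpG, 0.57 after MALP2, 0.40 after IL1b, 0.22 after TNFa, 0.04 after IL4 and -0.49 after TGFb1. Among all genes compared 7.15% to 10.7% were higher and 8.57% to 12.7% lower, with medians of -0.12 to -0.077. Nfkbiz, the nuclear IkB protein needed for Il6 and Il12b transcription in mouse macrophages, was 188 against 4.50 FPKM after CpG (5.10) and 118 against 4.51 FPKM after MALP2 (4.43). It was also higher after IL1b (2.03) and IFNg (1.83) and lower after IL4 (-1.88). The interferon regulatory factors Irf1 (1650 against 75.8 FPKM, 4.43) and Irf8 (1308 against 154.5 FPKM, 3.07) led after IFNg, both were lower after IL4 (-1.49 and -1.18), and Irf1 was lower after TGFb1 (-1.68). Batf3 (3.43) and Irf4 (2.08) led after IL4. Batf3 was also higher after IFNg (1.47) and was lower, at -1.79 to -1.21, after the other 5 agents, and Irf4 was lower after TGFb1 (-1.16) and IL1b (-1.01). The AP-1 genes Fos (4.03) and Fosl1 (2.82) led after TNFa, and Fos (3.07) and Fosl1 (2.21) after IL1b. Fosl1 was also higher after MALP2 (2.44), CpG (2.21) and IFNg (1.79). Fos was also among the 2 leading genes for MALP2 (3.21), CpG (2.95) and TGFb1 (2.49), and it was higher after IFNg (2.93). Maf, an activator of Il10 transcription, was lower after TGFb1 (22.8 against 84.0 FPKM, -1.84, q = 1.64e-05 in the authors' deposited table). Maf was also lower after TNFa (-1.93) and IL1b (-1.53), where Il10 changed by 0.21 and -0.01.

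Of 8 regulators of cytokine mRNA decay, 2 were higher and 1 lower after MALP2 and after CpG, 2 and 0 after IFNg, 4 and 1 after IL4, 1 and 2 after IL1b, and 1 and 1 after TNFa and TGFb1. Their median change was 0.31 after IFNg, 1.0 after IL4 and 0.42 to 0.71 after the other agents. The median over all genes compared lay between -0.12 and -0.077, with 7.15% to 10.7% higher and 8.57% to 12.7% lower. Of the 5 regulators counted after IL4, 1 was called in the authors' deposited table. Zc3h12a, the RNase that cleaves Il6 and Il12b mRNA, was 176 against 11.6 FPKM after CpG (3.82) and 157 against 11.6 FPKM after MALP2 (3.65). It was also higher after IFNg (1.52), IL4 (1.47) and IL1b (1.40). Zfp36, which binds AU-rich cytokine mRNA, was higher after IFNg (3.55), CpG (2.92) and MALP2 (2.58). Zfp36l1 was lower after TNFa (-1.50), IL1b (-1.07) and TGFb1 (-1.03) and higher after IL4 (105 against 42.3 FPKM, 1.3). Of these only the change after TNFa was called in the authors' deposited tables. Hnrnpd was higher after TNFa (1.04) and TGFb1 (1.01), with 0.81 to 0.99 after the other agents.

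For 7 of the genes, all but Il12a and Il23a, which did not reach 1 FPKM, the 3 genes with the most similar pattern were found by Pearson's r of log2(FPKM + 1) over the 8 libraries. The values come from tables joined through the 1 untreated library, and r is given with no test. Il12b was most like Mapkbp1 (r = 0.985), U90926 (0.984) and Il19 (0.980), and Il10 most like Shisa3 (0.984), Il19 (0.974) and Dgat2 (0.973). Il19 was most like Shisa3 (0.990), U90926 (0.989) and Mapkbp1 (0.986). Il6 was most like Csf2 (0.987), Nox1 (0.984) and Has1 (0.982), Il27 most like Ppp1r15b (0.997), Lipg (0.989) and Il2ra (0.980), and Ebi3 most like Ntng2 (0.984), Slc11a2 (0.973) and Eif4ebp1 (0.972). Il15 was most like the interferon signalling gene Stat2 (0.981), Ms4a4b (0.979) and Gm5431 (0.974), with Stat2 at 122 FPKM after IFNg, 19.8 FPKM after IL4 and 75.5 FPKM untreated. By rank correlation 1 of these 21 genes stayed among the 3 most alike.

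All 10 macrophage markers reached 1 FPKM, and the 9 with status OK throughout summed to 4878 to 8040 FPKM in stimulated libraries, against 5980 FPKM untreated. Dendritic cells also make IL-12 and IL-23, and of their 8 markers Clec9a and Ccr7 reached 1 FPKM in any library. That list summed to 1.82 (TGFb1) to 4.41 FPKM (IFNg), against 2.44 FPKM untreated. Of 10 T and NK cell markers Cd4 alone reached 1 FPKM, of 8 B and plasma cell markers Cd79b alone, and of 6 mast cell markers Kit alone. The B cell genes Cd79a and Ms4a1 and the T cell genes Cd3e and Cd3d were under 0.1 FPKM in every library. Neutrophil markers, all 8 above 1 FPKM in at least 1 library, summed to 153 (IL4) to 416 FPKM (IFNg), against 264 FPKM untreated. Stromal markers summed to 147 FPKM after IFNg and from 70.3 FPKM (IL4) upward in the other stimulated libraries, against 69.2 FPKM untreated. In bulk RNA more expressing cells and more RNA per cell cannot be told apart.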

How the data were processed

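Poly(A) RNA-seq of 8 macrophage libraries was used, 7 stimulated and 1 untreated. Per the submitters' processing notes, TopHat 1.3.1, Cufflinks 1.2.1 and Cuffdiff 1.2.1 were used with build mm9; the read totals, strand setting and options were not found in the labels or headers. The authors deposited, per stimulus, a table of FPKM with confidence bounds for the stimulated and untreated library, and, per the file headers, a second table with Cuffdiff p-values, q-values and a call for each gene. The level of the bounds is not stated there.

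Symbols were found for 31840 of 36806 gene IDs in GENCODE. Locus starts counted from 0 in the files, as their spans show for 13282 genes, and 1 was added. Untreated values of the 7 tables differed by 1 factor per table, which joined them. With 1 library per group no test was possible. Changes use a pseudocount of 1 FPKM and a minimum of 1 FPKM in either library. Pathway genes named are the 2 per list and stimulus with the largest change among those counted and called by the authors. Their changes after other agents are given whether or not the authors called them. Bound widths were read as 2 SD of a read count, which gave whole reads within 0.02 for 50.6% to 52.7% of low genes. The 9 genes, the lists and the rules were chosen with earlier results of these data known. The counting rule was tested on simulated data made from genes of at least 5 FPKM untreated, so that test says nothing of lower levels. In the untreated library 6 of the 9 genes were under 1 FPKM. Alternatives were a pseudocount of 0.1, a minimum of 5 FPKM or none, the median gene set to no change, agreement of the authors' call, the other 6 stimulated libraries as reference, and rank correlation. Python 3.11.15, numpy 2.4.6, pandas 2.3.3 and matplotlib 3.10.9 were used.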

Additional observations from a re-analysis of the deposited data

How the results depend on the processing

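The 6 higher genes after CpG and after MALP2 became 5 each with the authors' call, which leaves out Ebi3, and 4 after MALP2 with a minimum of 5 FPKM, which leaves out Il19 and Il27. The other settings tried gave 6. That minimum also left 2 higher after IFNg and 2 lower after TGFb1. With a pseudocount of 0.1, 2 of the 9 genes became higher after TNFa and 1 after IL1b. Centring on the median gene made 1 higher after TNFa, left 0 lower after CpG, where Il15 had stood at -1.07, and left 2 lower after TGFb1, where Il10 stood at -0.99. Requiring the authors' call left 1 lower after IL4 and 0 after IL1b and CpG. Against the other 6 stimulated libraries, 5 were lower after TGFb1 and 0 after IL1b and CpG, and Il15 turned to 0.38 after IL1b and 0.45 after CpG. Over all genes, the authors' call left 1073 lower after IFNg and 806 higher after MALP2. Against the other 6 stimulated libraries the counts were 427 lower after IFNg; 623 higher and 739 lower after IL4; 198 and 102 after TNFa; 443 and 506 after TGFb1; 152 and 140 after IL1b; 396 and 182 after MALP2; and 443 and 101 after CpG. That setting replaces the reference, and other causes were not tested. Of the 21 most similar genes 1 remained by rank correlation. Depth limits the genes near 0: untreated Il6 and Il19 have the bound width of 2 reads. No paired analysis was possible because each group has 1 library.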

Other observations

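The balance of Il10 and Il12b, the genes for a restraining cytokine and for the p40 chain, differed between libraries. In FPKM Il10 was 1.28 times Il12b after CpG (76.8 over 59.9 FPKM), 3.45 times after MALP2 (18.5 over 5.35 FPKM), 1.11 times after IFNg, 2.16 times after TNFa, 4.32 times after IL1b, 4.59 times after TGFb1 and 53.4 times after IL4, against 19.5 times in the untreated library. The ratios after IL4, after TGFb1 and untreated rest on Il12b values of 0.0409 to 0.106 FPKM. By FPKM alone the nearest levels of these genes were in the IFNg and CpG libraries, at 1.45 over 1.3 FPKM and 76.8 over 59.9 FPKM. The bounds of Il10 and Il12b overlap there. They also overlap after TNFa (0.862 to 4.20 and 0.388 to 1.96 FPKM) and MALP2 (7.05 to 29.9 and 1.85 to 8.86 FPKM). No test of the ratios was possible with 1 library each.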
